A study of Mus musculus with 6 samples.

Results

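The set described here holds 10 genes for enzymes of serine, asparagine, one-carbon and proline metabolism, taken by their symbols from 25001 loci. They are Phgdh, Psat1, Psph, Shmt1, Shmt2, Mthfd2, Mthfd1l, Aldh1l2, Asns and Pycr1, and each symbol had 1 row in every file. The members were chosen by name with the FPKM of these 6 libraries already known, the ratio of the EICD to the GFP library above all, so every value of a member is given as a description, with no test. RNA was sequenced from 427 cells, a mouse thymoma cell line, in 6 libraries with 1 library per condition. The first 2 came from 427 cells that carried the empty pSUPER vector, given DMSO or PMA at 1 µM (PMA is a phorbol ester and triggers shedding of epithin/PRSS14) for 2 h after 2 h without serum. Another 2 came from cells labelled as a knockdown of SPPL2b (SP2bKD), with DMSO or with the same PMA treatment. For this DMSO library no serum-free time and no length of treatment are recorded. The last 2 came from cells labelled SP2bKD and transfected with a GFP vector alone (GFP library) or with the GFP vector and FLAG-tagged intracellular domain of epithin/PRSS14 (EICD library), sorted for GFP 24 h later. The sample labels name an siRNA for the knockdown, while the methods of the study describe an shRNA and a single-cell clone, SP2bKD-10, for the transfected cells. The labels do not say whether the DMSO and PMA libraries labelled SP2bKD came from the same clone.

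Phgdh, Psat1 and Psph act in turn to make serine from the glycolytic intermediate 3-phosphoglycerate. Shmt1 in the cytosol and Shmt2 in mitochondria split serine into glycine and a one-carbon unit carried on folate, which dividing cells need for purines and thymidylate. In mitochondria Mthfd2 oxidizes that unit, and Mthfd1l releases it as formate or Aldh1l2 as carbon dioxide. Asns makes asparagine from aspartate and glutamine, and Pycr1 carries out the last step of proline synthesis. Many genes of this group are known targets of ATF4, the transcription factor of the integrated stress response, which binds composite C/EBP-ATF sites.

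Values are FPKM, that is, fragments scaled to the length of the exons and to the size of the library, so levels of different genes can be set side by side. The FPKM steps of very low loci gave an estimated 24480000 to 29860000 fragments per library. With each member taken at its longest annotated transcript, the lowest estimate was 409 fragments, and shorter transcripts would give fewer. Sppl2b was at 9.90 and 6.86 FPKM in 427 cells with DMSO and PMA, against 13.4 and 9.37 in the libraries labelled SP2bKD, which goes against the label. It was at 11.4 FPKM with GFP and 13.2 FPKM with EICD, again above both 427 libraries. The study tested single-cell clones for SPPL2b mRNA by qPCR and presents those it used as knocked down, unlike these FPKM values. It reported less EICD generation in those clones after PMA. St14, the gene of epithin/PRSS14, was at 69.6 FPKM with GFP and 615 FPKM with EICD. The transfected fragment is itself St14 coding sequence, so its transcripts may count there. These values do not separate it from the cells' own gene. Of the 6 epithelial markers found, all reached 1 FPKM in every library, with sums from 2638 to 4436, whereas the 6 T cell and 5 fibroblast markers were all under 1 and Cd3e, Cd3d, Cd4 and Thy1 were at 0. Of 4 macrophage markers, Csf1r and Cd68 reached 1 FPKM in every library and Adgre1 was at 0 in all.

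The sequence before the annotated start was examined first, since C/EBP-ATF sites are a known feature of this gene group. RefSeq promoter windows on GRCm38.p6, from 250 bases before to 50 bases after the start, were available for 9 of the 10 members, in 10 windows. Aldh1l2 had none. On either strand, the composite motif TGATGNAAN matched in the windows of 2 members, Asns and Pycr1, and in 3.95% of all 32851 windows. CCAAT matched in 6 of the 9 members and in 37.4% of all windows. The cyclic AMP element TGACGTCA, the AP-1 motif TGANTCA and the E-box CACGTG matched in none of the member windows, and in 1.79%, 7.81% and 7.15% of all windows. No 2 of these matches overlapped. The 250 bases before the start are given for Asns and Pycr1, which hold the composite motif, for Mthfd2, which was more than 2-fold higher in the EICD library without a match to it, and for Phgdh, which was not higher there. They run 5′ to 3′ on the strand of the gene, and capitals mark matches to TGATGNAAN and to CCAAT or its reverse complement ATTGG.
Asns, chr6:7693210-7693459, minus strand: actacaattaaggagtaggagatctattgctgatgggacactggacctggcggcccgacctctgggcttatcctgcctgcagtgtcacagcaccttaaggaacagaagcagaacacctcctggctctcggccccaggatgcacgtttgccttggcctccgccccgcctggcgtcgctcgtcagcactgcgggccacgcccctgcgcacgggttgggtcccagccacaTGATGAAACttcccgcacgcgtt
Pycr1, chr11:120643749-120643998, minus strand: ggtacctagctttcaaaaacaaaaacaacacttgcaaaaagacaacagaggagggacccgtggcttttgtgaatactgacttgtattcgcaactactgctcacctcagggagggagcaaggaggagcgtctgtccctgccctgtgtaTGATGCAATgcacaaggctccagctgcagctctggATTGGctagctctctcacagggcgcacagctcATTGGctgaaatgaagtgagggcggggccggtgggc
Mthfd2, chr6:83317605-83317854, minus strand: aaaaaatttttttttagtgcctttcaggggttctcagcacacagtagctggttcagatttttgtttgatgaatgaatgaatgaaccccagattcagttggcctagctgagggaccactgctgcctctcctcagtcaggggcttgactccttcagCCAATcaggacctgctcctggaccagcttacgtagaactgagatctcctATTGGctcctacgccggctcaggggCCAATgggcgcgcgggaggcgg
Phgdh, chr3:98339970-98340219, minus strand: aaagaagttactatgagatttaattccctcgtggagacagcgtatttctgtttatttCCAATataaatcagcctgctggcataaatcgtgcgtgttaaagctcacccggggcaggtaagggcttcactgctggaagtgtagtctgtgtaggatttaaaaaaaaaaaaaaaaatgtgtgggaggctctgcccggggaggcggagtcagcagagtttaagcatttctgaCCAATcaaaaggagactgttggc

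In Asns the composite match TGATGAAAC began 23 bases before the start. In Pycr1 the match was TGATGCAAT, 103 bases before the start, with ATTGG beginning 68 and 36 bases before it. Mthfd2 held CCAAT or ATTGG at 96, 47 and 22 bases before the start, and Phgdh held CCAAT at 193 and 23 bases. The Mthfd2 window lies inside the assembled locus, which reaches upstream to base 83325908. The start examined may therefore not be the one behind the FPKM of Mthfd2. The assembled Asns locus also reaches upstream of the annotated start, to base 7693254, so the composite match of Asns lies inside that locus. A match of letters describes the window and does not show that a factor binds there.

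The first comparison asked how the transcripts differed between EICD-transfected and GFP-transfected cells labelled SP2bKD. Of the 10 enzymes, 9 had a higher FPKM in the EICD library, as had 58.3% of all loci tested, and 4 of them, Aldh1l2, Mthfd2, Asns and Pycr1, were more than 2-fold higher. The log2 ratio, with 0.01 added to the EICD value, had a median of 0.70 over the 10 members and 0.068 over the 10991 loci of at least 1 FPKM in either library. A ratio above 2-fold was found in 3.93% of those loci, and in 1.38% when a mean FPKM of 10 was required. The members were chosen with this contrast in view, so nothing is read from the difference to the background. With 1 library per condition there is no replicate check, and what EICD did and what merely differed from one transfection to the other cannot be told apart. In such bulk RNA, fewer cells of a type and less RNA per cell cannot be told apart either. The epithelial markers differed between the same libraries, with 5 of 6 lower in the EICD library, a median log2 ratio of -0.26 and a sum of 2967 FPKM against 4436 with GFP. In the untransfected libraries the sum was 2638 to 3351 FPKM, a range that holds the EICD value and not that of GFP. Krt14 alone was at 2456 FPKM with EICD and 3820 with GFP. The keratin Krt8 was more than 2-fold lower, at 70.2 against 143 FPKM. Their part in the values of the enzymes was not tested.

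**Figure D1:**
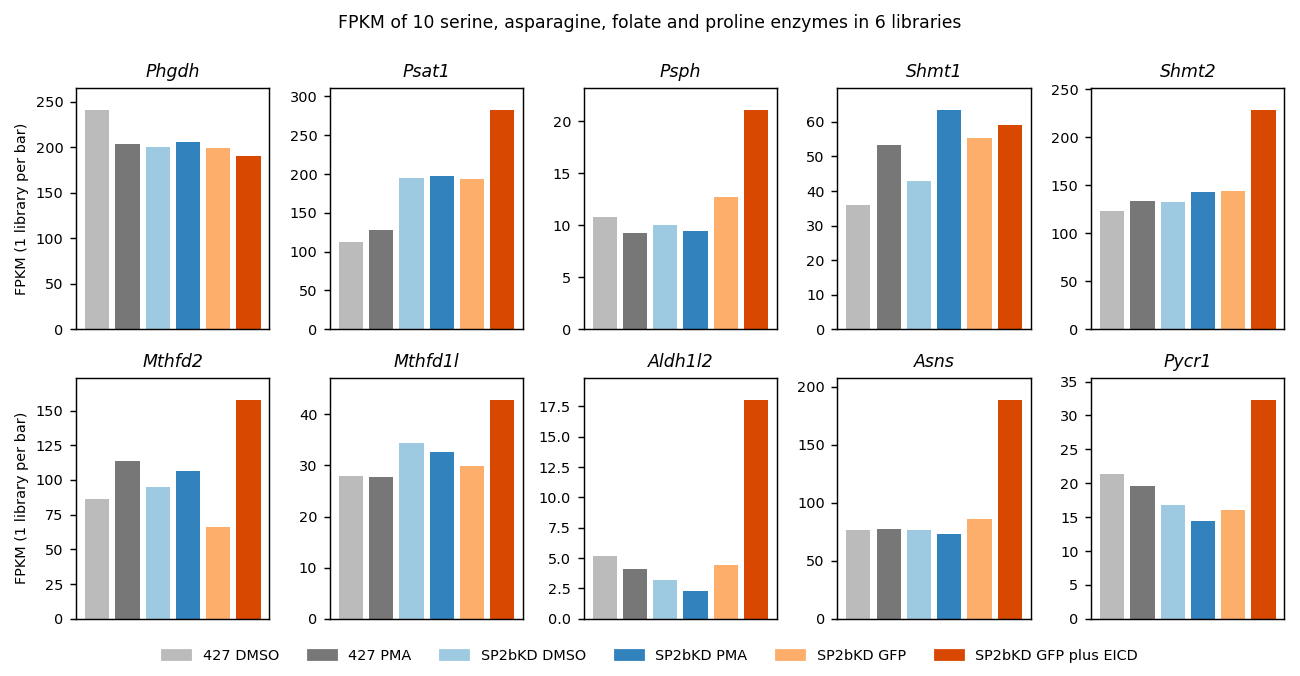
FPKM (y axis, linear from 0, its own scale in each panel) of the 10 enzymes, with 1 bar per library and no error bars since each condition has 1 library. In 8 of the 10 panels the bar of the EICD library is the highest, and Phgdh and Shmt1 are the exceptions.

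Among the enzymes of serine synthesis, Phgdh, the first and committed step, did not share the higher level. Phgdh (chromosome 3, 98313170 to 98339990, build GRCm38) measured 241 FPKM in DMSO-treated 427 cells, 204 with PMA, 200.2 and 206 in the libraries labelled SP2bKD with DMSO and with PMA, and 199.8 and 190.2 in the GFP and EICD libraries. The EICD library was the lowest of the 6, with a log2 ratio to GFP of -0.071. Psat1 (chromosome 19, 15904678 to 15947337), the transaminase of the next step, had 113, 128, 195, 198, 194 and 283 FPKM in the same order, a log2 ratio of 0.55. It therefore passed Phgdh in the EICD library, with a ratio of Psat1 to Phgdh of 1.49, against 0.468 to 0.972 in the other 5 libraries. Psph (chromosome 5, 129765369 to 129787449), the phosphatase of the last step, had 10.8, 9.20, 9.97, 9.41, 12.7 and 21.1 FPKM, a log2 ratio of 0.73. The ratio of Psat1 to Psph was 13.4 in the EICD library, within the range of 10.4 to 21.0 in the others. Psph had by far the lowest level of the serine synthesis genes in every library.

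The mitochondrial and the cytosolic hydroxymethyltransferase differed. Shmt2 (chromosome 10, 127517123 to 127522449) had 123, 133, 132, 143, 144 and 228 FPKM, so that 5 libraries lay close together and the EICD library stood above them at a log2 ratio to GFP of 0.66. Shmt1 (chromosome 11, 60788104 to 60811718) had 35.9, 53.4, 43.0, 63.5, 55.2 and 59.2 FPKM and a log2 ratio of 0.10. Its highest value was in the library labelled SP2bKD with PMA. The ratio of Shmt2 to Shmt1 was 3.86 in the EICD library and 2.26 to 3.43 in the other 5. The Shmt2 locus overlaps Ndufa4l2 and the Shmt1 locus overlaps Smcr8, each on the opposite strand. The sources used here do not say whether the libraries kept strand, so fragments from these overlaps may belong to either gene.

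The 3 mitochondrial folate enzymes had log2 ratios of EICD to GFP from 0.52 to 2.03. Aldh1l2 (chromosome 10, 83474082 to 83534140) had 5.19, 4.07, 3.22, 2.27, 4.41 and 18.1 FPKM, which made it the lowest of the 10 members in every library. Its log2 ratio of EICD to GFP was 2.03, or 4.09-fold, and 56 of the 10991 loci had a larger one. Mthfd2 (chromosome 6, 83305691 to 83325908), the dehydrogenase and cyclohydrolase typical of dividing and embryonic cells, had 86.5, 114, 95.01, 107, 66.3 and 158 FPKM and a log2 ratio of 1.25. Here the GFP library was the lowest of the 6, and the EICD library was 1.39 times the highest of the others. Mthfd1l (chromosome 10, 3973118 to 4167081) had 27.9, 27.8, 34.4, 32.5, 30.0 and 42.9 FPKM and a log2 ratio of 0.52.

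Asns (chromosome 6, 7675169 to 7693254) had 76.9, 77.7, 76.9, 73.4, 85.8 and 189 FPKM. Its level hardly differed among the first 4 libraries, and the EICD library was 2.20 times the highest of the others, with a log2 ratio to GFP of 1.14. Pycr1 (chromosome 11, 120635712 to 120643769) had 21.4, 19.7, 16.7, 14.5, 16.0 and 32.3 FPKM and a log2 ratio of 1.02. This was the member just inside a 2-fold difference, and it fell just outside, at 0.97, with 1 added to both libraries. Psph at 0.73 was the nearest below. From the estimated fragments, counting error alone gave 95% intervals of ±0.032 for Psat1 to ±0.12 for Aldh1l2 on these log2 ratios. Such intervals would be wider for shorter transcripts than the longest one used, and they leave out all differences between cultures and library preparations.

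**Figure D2:**
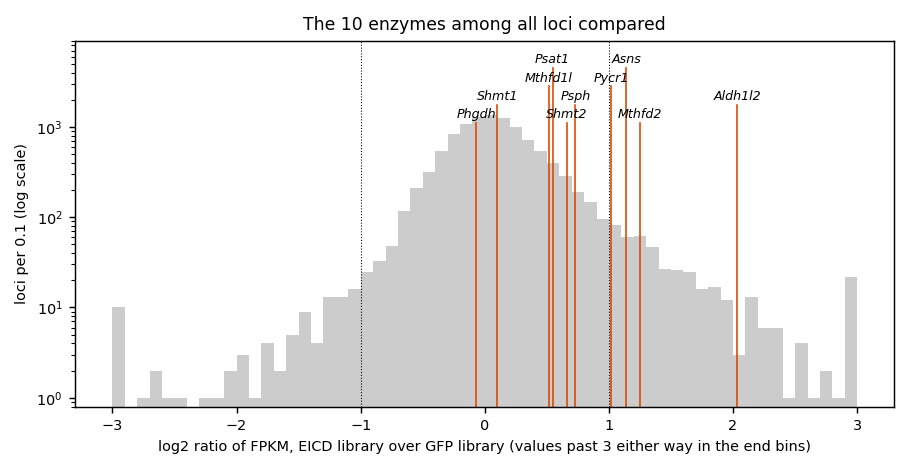
Histogram of the log2 ratio of FPKM, EICD library over GFP library, for 10991 loci (x axis, bins of 0.1, y axis number of loci on a log scale), with a line for each of the 10 enzymes. Phgdh at -0.071 and Shmt1 at 0.10 lie in the middle of the distribution, and Aldh1l2 at 2.03 in its upper tail.

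Across the 6 libraries, 8 of the 10 enzymes had their highest FPKM in the EICD library, as had 26.3% of all 11580 loci that reached 1 FPKM in any library. The order of the levels was nearly constant. Shmt1, Mthfd1l, Pycr1, Psph and Aldh1l2 held places 6 to 10 in every library. Phgdh was at place 1 in 5 libraries and at place 3 in the EICD library, behind Psat1 and Shmt2. Mthfd2 stood above Asns in the 4 libraries without transfection and below it in both transfected ones.

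The next comparison set the GFP library beside the untransfected library labelled SP2bKD with DMSO, to show how transfected and sorted cells differed without EICD. None of the 10 members differed more than 2-fold, against 9.15% of 11066 loci, and the median log2 ratio was 0.061 (all loci, -0.082). Mthfd2 was 0.52 lower on the log2 scale in the GFP library (66.3 against 95.01 FPKM), and Aldh1l2, Shmt1 and Psph were higher by 0.45, 0.36 and 0.35. The difference of Mthfd2 was the largest in size without rescaling, but that of Aldh1l2 was larger with upper quartile scaling (0.52 against -0.45) and with median ratio scaling (0.53 against -0.44). The ratios of Phgdh, Psat1 and Pycr1 lay between -0.067 and -0.0031 and changed sign when libraries were scaled to the same upper quartile. Transfection, sorting, time in culture and serum cannot be told apart here. Of the epithelial markers, Krt8 was at 143 FPKM in the GFP library against 311 in the untransfected one, and Krt14 at 3820 against 1785, and their part was not tested. For Mthfd2 the low GFP value enters the EICD ratio as well, and the EICD library was 158 against 95.01 FPKM in the untransfected library.

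Since no serum-free time is recorded for the DMSO library labelled SP2bKD, PMA and serum cannot be told apart in that line. With PMA for 2 h, the enzymes differed little, and the largest difference was that of Shmt1 in both lines. Its FPKM was 35.9 with DMSO and 53.4 with PMA in 427 cells, and 43.0 and 63.5 in the libraries labelled SP2bKD, which gave log2 ratios of 0.57 and 0.56. Mthfd2 was higher by 0.40 and 0.17, and Shmt2 by 0.11 in both lines. Aldh1l2 was lower in both, at -0.35 and -0.50, and so was Pycr1, at -0.12 and -0.21. None of the 10 passed a 2-fold difference in either line, against 9.44% of 10981 loci in 427 cells and 10.2% of 10987 loci in the libraries labelled SP2bKD. The medians over the members were 0.0059 and -0.022, and over all loci -0.12 and -0.15. Scaling by the median ratio of well-expressed loci raised every PMA ratio by 0.096 in 427 cells and by 0.12 in the other line, and those of Shmt1 were then 0.67 and 0.68. The epithelial markers had medians of 0.86 and 0.69 with PMA, and 5 of 6 were higher in each line. In the 2 lines, which share no library, 8 of the 10 members had the same direction, and 81.0% of all loci did. Near 0 the direction rests on the scaling, since Mthfd1l turned positive in 427 cells, and Asns, Psph and Mthfd1l in the other line, under median ratio scaling.

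**Figure D3:**
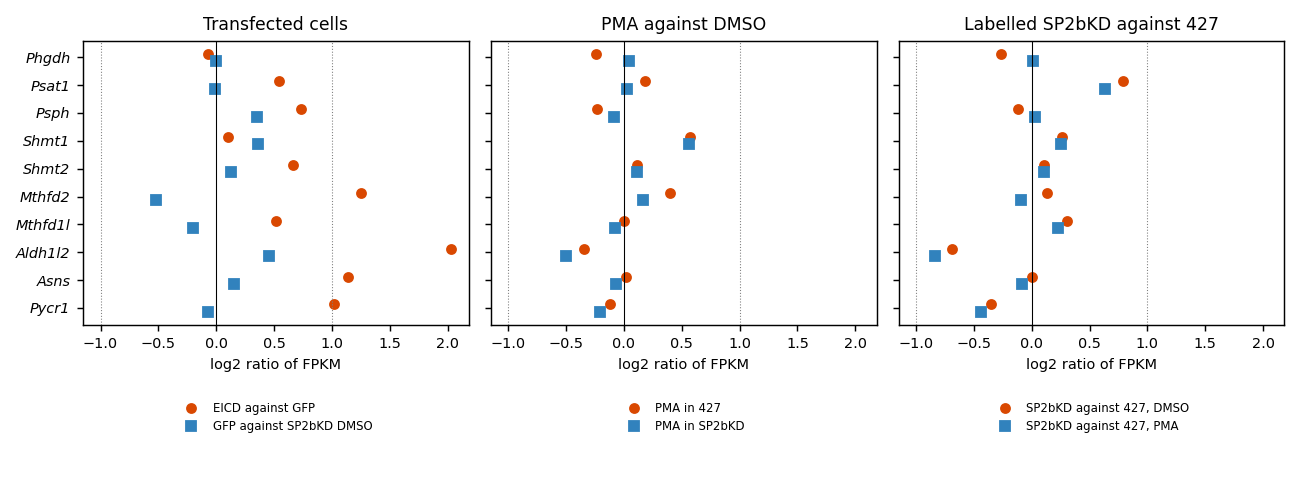
Log2 ratios of FPKM (x axis) for the 10 enzymes (y axis) in 6 comparisons of 2 libraries each, without error bars since there are no replicates. Dotted lines mark 2-fold, which 4 enzymes pass in EICD against GFP (circles, left panel) and none in the other comparisons.

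The libraries labelled SP2bKD were also set beside those of 427 cells, with the reservation that Sppl2b itself was not lower in them. With DMSO, a difference in serum-free time cannot be told apart from that between the lines. None of the members differed more than 2-fold, against 7.05% of 11078 loci with DMSO and 5.83% of 10840 loci with PMA. Psat1 was higher in the libraries labelled SP2bKD, by 0.79 with DMSO (195 against 113 FPKM) and by 0.63 with PMA (198 against 128). Its values of 194 and 283 FPKM in the transfected cells, which carry the same label, were also above both 427 libraries. Mthfd1l was higher by 0.30 and 0.23, and Shmt1 by 0.26 and 0.25. Of the 6 epithelial markers, 4 were higher in the libraries labelled SP2bKD with DMSO and 3 with PMA. Their median log2 ratios were 0.25 and -0.060. Only Krt8 was more than 2-fold higher, with DMSO (311 against 80.1 FPKM) and with PMA (403 against 136), and none was more than 2-fold lower. The part of such marker differences in the enzyme values was not tested. Aldh1l2 was lower, at -0.69 with DMSO and -0.84 with PMA, and Pycr1 at -0.36 and -0.44. The direction was the same with DMSO and with PMA for 7 of the 10 members and for 75.4% of all loci. Phgdh, Psph and Mthfd2 were the other 3, with log2 ratios from -0.27 to 0.14, and the value of Phgdh with PMA changed sign under median ratio scaling.

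Other genes of the same pathways were taken from lists made from textbook knowledge, but with earlier results of these data known. The lists hold none of the members, so they do not stand for whole pathways, and nothing is read from their shares. Of the folate and one-carbon genes reported here, 18 of 20 were found and 17 reached 1 FPKM in the GFP or the EICD library. Of these 17, without the members, 5 were higher with EICD, against 58.3% of all loci. Under upper quartile and median ratio scaling 4 were higher, against 55.7% and 54.0% of all loci. The log2 ratios of the 17 ranged from -0.50 to 0.42, with a median of -0.054. Of the 14 genes found for the use of serine and glycine, 11 reached 1 FPKM, of which 1 was more than 2-fold higher, the cysteine-forming enzyme Cth (15.2 and 37.9 FPKM, 1.32), and the median was 0.057. Of the 14 genes found and reported for asparagine, glutamate and proline metabolism, 11 reached 1 FPKM, of which 3 were more than 2-fold higher and the median was 0.014. These were Gpt2, a mitochondrial alanine transaminase (18.1 and 90.7 FPKM, 2.32), Aldh18a1, which starts proline synthesis from glutamate (58.1 and 148 FPKM, 1.35), and Glul, glutamine synthetase (4.39 and 10.9 FPKM, 1.32). None of the reported genes of these 3 lists that reached 1 FPKM was more than 2-fold lower.

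Aldh18a1 and Pycr1 stand at the first and the last step of proline synthesis. Pycrl, also a reductase of that last step, had a log2 ratio of -0.076. It and the following 3 relatives of members were picked out after their values had been seen. Mthfd2l, which is related to Mthfd2, had -0.054, and the cytosolic Mthfd1, related to Mthfd1l, had -0.32. Aldh1l1, the cytosolic counterpart of Aldh1l2, had only 0.762 and 1.01 FPKM in the GFP and EICD libraries and at most 0.141 in the other 4. Within the EICD library the ratio of Mthfd2 to Mthfd2l was 9.09, and 3.67 to 6.33 in the other 5 libraries. The ratio of Mthfd1l to Mthfd1 was 0.792, and 0.443 to 0.596 in the others. The ratio of Aldh1l2 to the scarce Aldh1l1, in contrast, was 17.9 in the EICD library and lay within the 5.79 to 104 of the others. The ratio of Mthfd2 to Shmt2 was also within the range of the others, at 0.691 against 0.459 to 0.853.

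In a list of ATF4 and integrated stress response genes, all 15 reached 1 FPKM. Of these, 14 were higher in the EICD library and 9 more than 2-fold higher, with a median log2 ratio of 1.36. Among all loci, 58.3% were higher and 3.93% more than 2-fold. This list too was chosen with earlier results of these data known, so nothing is read from the difference to the background. The largest ratios were those of Trib3, a pseudokinase (6.57 and 60.9 FPKM, 3.21), Chac1, which degrades glutathione (15.2 and 113 FPKM, 2.90) and Nupr1 (12.5 and 57.1 FPKM, 2.19). Atf3, Ddit3, Atf5, Ppp1r15a, Sesn2 and Cebpg lay between 1.06 and 1.87. Atf4 itself, whose product is controlled mainly by translation, had 140 and 187 FPKM, a log2 ratio of 0.42. Between the GFP library and the untransfected library labelled SP2bKD with DMSO, Atf3 (2.83) and Ppp1r15a (1.30) of these 15 were more than 2-fold higher. With PMA the median of the list was -0.16 in 427 cells and -0.31 in the libraries labelled SP2bKD. Past 2-fold with PMA were only Atf3 in 427 cells (1.85) and Nupr1 in the libraries labelled SP2bKD (-1.71). Whether the higher levels of 9 of the 10 enzymes depend on the factors in this list was not tested.

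**Figure D4:**
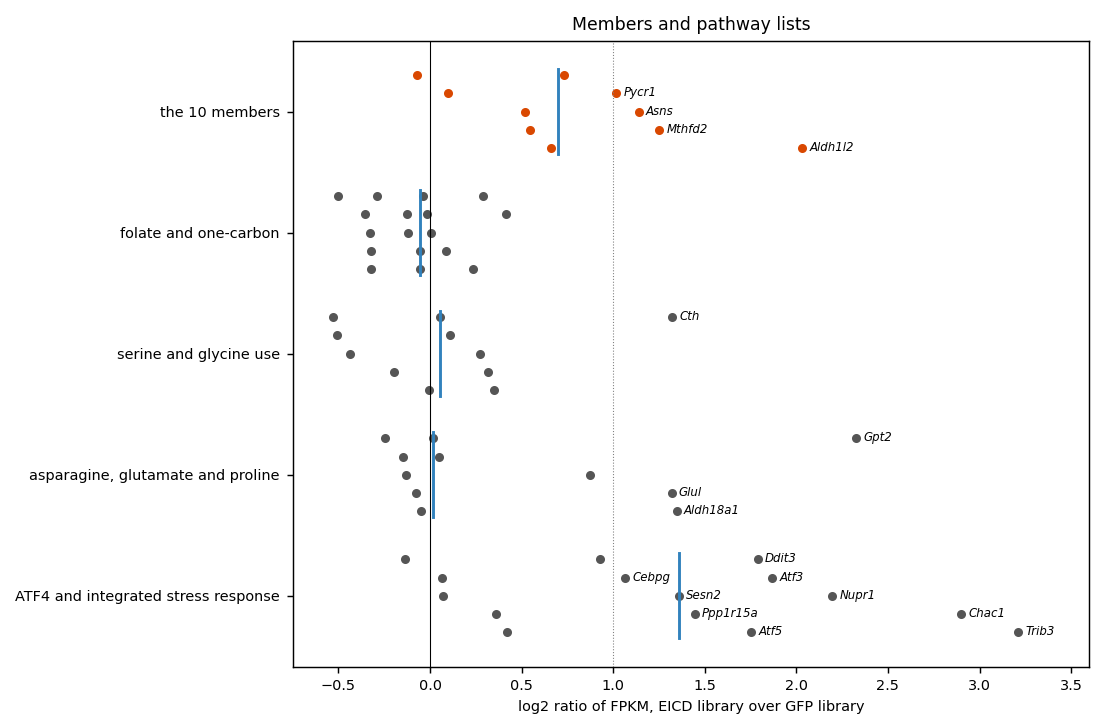
Log2 ratio of FPKM, EICD library over GFP library (x axis), for the 10 enzymes and 4 lists of related genes (rows). Each point is a gene of at least 1 FPKM in either library, its height within a row has no meaning, blue bars are medians, and names are given past the dotted 2-fold line.

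The loci whose pattern over the 6 libraries was most like that of the members were sought by the root mean square difference from their median profile, on centred log2 values, among 9822 loci of at least 1 FPKM in each library. The 5 nearest were Slc22a5, Dennd6b, Pawr, Xpot and Adar, at 0.070 to 0.087 on the log2 scale. Xpot, an exporter of tRNA from the nucleus, had 56.6, 52.7, 60.8, 66.0, 65.9 and 96.0 FPKM in the order used above. Of the members, Shmt2 was the nearest to the median profile, at 0.032, and Aldh1l2 the farthest, at 0.70. Every member but Shmt2 lay farther from that profile than the 5 named loci, the nearest of them being Mthfd1l at 0.155. Each profile has 6 points, 1 per library.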

How the data were processed

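The 6 mRNA libraries were read as 100 bp pairs. The authors aligned reads with Tophat 2.1.1 and deposited FPKM values from Cufflinks 2.1.1 and Cuffdiff 2.1.1 for 25001 loci assembled over the libraries, on GRCm38. The submitters' notes also list STAR 2.4.0b. FPKM depends on the assembled models and on fragments per library.

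From the deposited FPKM, log2 ratios were computed with Python 3.11.15, NumPy 2.4.6 and pandas 2.3.3, and plots with matplotlib 3.10.9. For EICD against GFP, 0.01 was added to the EICD library only, for loci of at least 0.01 FPKM in the GFP library, and otherwise to both libraries. The study's methods add 0.001 to the EICD library, which was run as an alternative. Background counts took loci that reached 1 FPKM in either library. No p-value was computed, since each condition has 1 library. Depth was estimated from genes with 1 transcript of over 2500 bases, and fragments of a member from its longest transcript. These steps were tested on simulated data.

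Members and lists were chosen with earlier results of these data known. All members were named, and of the pathway lists the genes of at least 1 FPKM that were more than 2-fold different in either comparison of transfected cells. Some list genes are not reported here and were left out of the list counts, and Mthfs, Amt, Gpt, Aldh4a1 and Krt5 were not analysed here. Alternatives were other added amounts, scalings, fold limits and minimum FPKM. Reads, arrays and counts were not used here.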

Additional observations from a re-analysis of the deposited data

Results flagged for a closer look

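The direction of the PMA response differed between 427 cells and the libraries labelled SP2bKD for 2 of the 10 enzymes, with 1 library per condition, so the differences were not tested. For Phgdh the log2 ratio of PMA to DMSO was -0.24 in 427 cells (204 against 241 FPKM) and 0.041 in the libraries labelled SP2bKD (206 against 200.2 FPKM), a difference of 0.282. For Asns the ratios were 0.015 and -0.068, a difference of -0.0824. Under upper quartile and median ratio scaling the second Asns ratio was 0.00064 and 0.053, so that both were then above 0. The serum-free time of the DMSO library labelled SP2bKD is not recorded, so PMA and serum cannot be told apart there.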

How the results depend on the processing

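The number of members more than 2-fold different in EICD against GFP was 4 as reported and with 0.001 or 0.1 added, and 3 with 1 added to both libraries or with upper quartile or median ratio scaling, where Pycr1 was at 0.97, 0.99 and 0.98. It was 6 at a limit of 1.5-fold, which 14.1% of all loci tested passed. In the other 5 comparisons it was 0, except at 1.5-fold for the libraries labelled SP2bKD against 427. There it was 2 with DMSO and 2 with PMA, in both cases Psat1 and Aldh1l2, against 16.2% and 13.8% of all loci tested. The count of all loci past 2-fold in EICD against GFP was 521, and 234 with 1 added, 1546 at 1.5-fold, 152 at a minimum FPKM of 10 and 2855 with no minimum. In the other comparisons, where it was 632 to 1124, the same alternatives gave 335 to 640, 1497 to 2807, 164 to 456 and 3983 to 5020. For PMA in the libraries labelled SP2bKD, 421 loci were higher and 703 lower, and 523 and 518 with median ratio scaling. Of 60 member ratios, 5 changed sign with upper quartile and 8 with median ratio scaling, none of them past 2-fold. No paired analysis was possible because each condition has 1 library. The depth leaves little counting error for these genes, but without replicates the spread between cultures is unknown.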

Other observations

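Glycolytic genes around the branch point of serine synthesis were in the list for serine and glycine use, and are singled out here after their values were seen. Pgam1, which draws on 3-phosphoglycerate, had 385 FPKM in the GFP library and 271 in the EICD library, a log2 ratio of -0.51. Eno1, which can share fragments with its near-identical copy Eno1b, had 442 and 326 FPKM (-0.44), and Pkm had 1131 and 785 FPKM (-0.53). In the 4 untransfected libraries Pgam1 ranged from 288 to 411 FPKM, so the EICD library was the lowest of the 6 for this gene, as it was for Eno1 and Pkm.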
